A study of Drosophila melanogaster with 13 samples.

Results

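CREB/CRTC regions that lie more than 500 bp and up to 5000 bp downstream of a transcription start site (TSS) numbered 743 of 4995 (14.9%), and they were assigned to 567 of the 2833 genes in the authors' deposited table (20.01%). They were chosen by the listed distance between the TSS and the nearest edge of the region, and their scores played no part in the choice. CREB is the cAMP-responsive transcription factor needed for long-term memory, and CRTC is a coactivator that binds CREB and enters the nucleus when it is dephosphorylated. Fly neurons of the mushroom bodies (MBs) store olfactory memories. Sites within the first kilobases of a transcribed unit often fall in introns or at alternative promoters, and such sites can act as enhancers.

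The ChIP-seq libraries came from MB nuclei of CS10 flies (w(CS10) in the study's methods), either naive or 1 day after spaced training, in which an odour is paired with electric shocks in repeated sessions separated by rest. Each protein had 3 libraries of naive and 3 of trained flies, and 1 input library came from naive flies. All flies carried FLAG-KASH, a tag for the nuclear envelope driven by MBp-LexA, which labels the α/β and γ lobes strongly and the α'/β' lobe weakly, and each library was made from many pooled flies. The deposited site lists give 1 score per site and protein over all replicates, so no score has a replicate error, no library can be told apart, and naive and trained flies were not compared here. Whether each list draws on naive flies, trained flies or both is not stated in the study's methods. The paper introduces the sites as binding examined after spaced training. The lists hold no read counts, so the depth behind a score is unknown. Every interval given here is a 95% interval over regions, and neighbouring regions of a gene are not independent of each other.

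The *Smr* gene, which encodes the corepressor Smrter of nuclear receptors, has a downstream region, and the study designed a primer pair to measure CRTC binding at this gene by quantitative PCR. Both primers are shown because they are the study's own probe of this locus on chromosome X. Which of the *Smr* regions they amplify was not placed here, since no dm3 genome sequence was used.
Smr F: gcgcgtgagtgtgtgtgttg
Smr R: gacgcaacagcaacaacaagtg

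The number of downstream regions fell with distance from the TSS. The median distance was 1257 bp, with quartiles of 752 and 2232 bp. Up to 1000 bp there were 313 regions (42.1%), up to 2000 bp 517 (69.6%), and over 3000 bp 105 (14.1%). The 645 regions at the same distances upstream of a TSS had a median of 1194 bp. At the lower limit, the nearest members were assigned to *sdk* (501 bp), *PGRP-LC* (504 bp) and *B4* (505 bp), and the nearest regions left out to *siz* (500 bp), *CG1737* (499 bp) and *dlt* (496 bp). Their CRTC scores were 7.46, 3.42 and 2.46 inside the limit and 1.60, 3.14 and 6.36 outside it. At the upper limit, *Akap200* (4969 bp, CRTC score 3.73), *mir-4978* (4966 bp, 3.37) and *Mtp* (4903 bp, 3.64) were inside. The regions of *tio* (5024 bp, 10.1), *rdx* (5034 bp, 10.7) and *Eip75B* (5093 bp, 3.66) were outside.

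**Figure D1:**
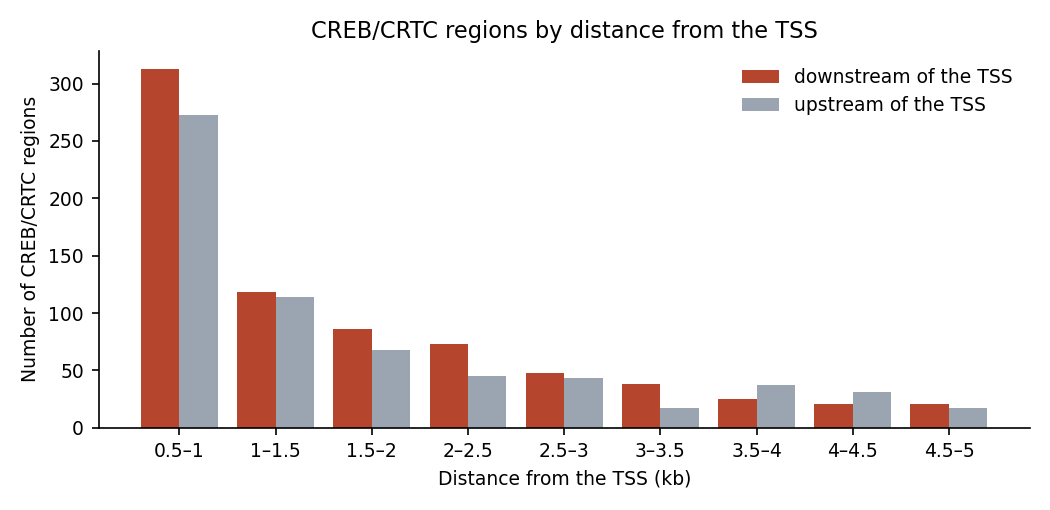
Number of CREB/CRTC regions (vertical axis) in 500 bp steps of distance from the TSS in kb (horizontal axis), downstream in red and upstream in grey. The first step holds 313 downstream and 273 upstream regions, and the last step holds 21 and 17.

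Starts were recovered from the listed distances, to see whether another of these starts lay nearer to a region than its own. For 701 genes with several regions, the distances of at least 1 pair pointed to the same TSS to within 1 bp on a single strand, and for 0 genes did pairs point to both strands. This set the strand of the gene, and each of its regions not covering a TSS then gave a start by its own distance. In this way 1269 starts were recovered in dm3 coordinates, some of them from a single region. Among them were the starts of 507 downstream regions (68.2%), 264 on the plus strand and 243 on the minus strand. Of all 743 regions, 0 lay nearer to another recovered start than to their own. Starts of genes without an agreeing pair, starts seen only through a region covering them and starts of genes without a region were not recovered. The count of 0 therefore cannot show that the listed gene is the nearest. Whether a region falls in an exon, an intron or a UTR was not determined, since no annotation of this build was used. By chromosome arm, downstream regions made up 13.7% of the regions of 2R, 13.9% of 2L, 13.9% of 3L, 15.4% of 3R and 17.7% of X (148 of 835, interval 15.3 to 20.5%), and 3 of the 18 regions of chromosome 4.

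The score is the enrichment value that the authors' peak caller gave each site, and it serves here to rank sites within a list. Downstream regions had a median CRTC score of 4.84 (interval 4.62 to 5.14) and a median CREB score of 4.43 (4.18 to 4.63) at the nearest CREB site. Over all regions the medians were 4.66 (4.56 to 4.76) for CRTC and 4.62 (4.51 to 4.71) for CREB, so the intervals overlapped for both proteins. The 853 regions less than or equal to 500 bp downstream of a TSS had lower medians, 3.64 (3.51 to 3.79) for CRTC and 3.81 (3.63 to 4.04) for CREB, and these intervals did not reach those of the regions farther downstream. The regions 0.5 to 5 kb upstream had medians of 5.01 for CRTC (4.66 to 5.32) and 4.85 for CREB (4.51 to 5.15), which overlapped those downstream. Regions up to 500 bp upstream and regions covering a TSS had higher CREB medians, 4.97 (4.72 to 5.25) and 4.94 (4.76 to 5.19). Both intervals lay above that of the downstream regions. Their CRTC medians were 4.97 (4.74 to 5.26) and 4.66 (4.36 to 4.90), with intervals that overlapped the downstream one. These differences were not given a p-value, because the scores have no replicates.

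**Figure D2:**
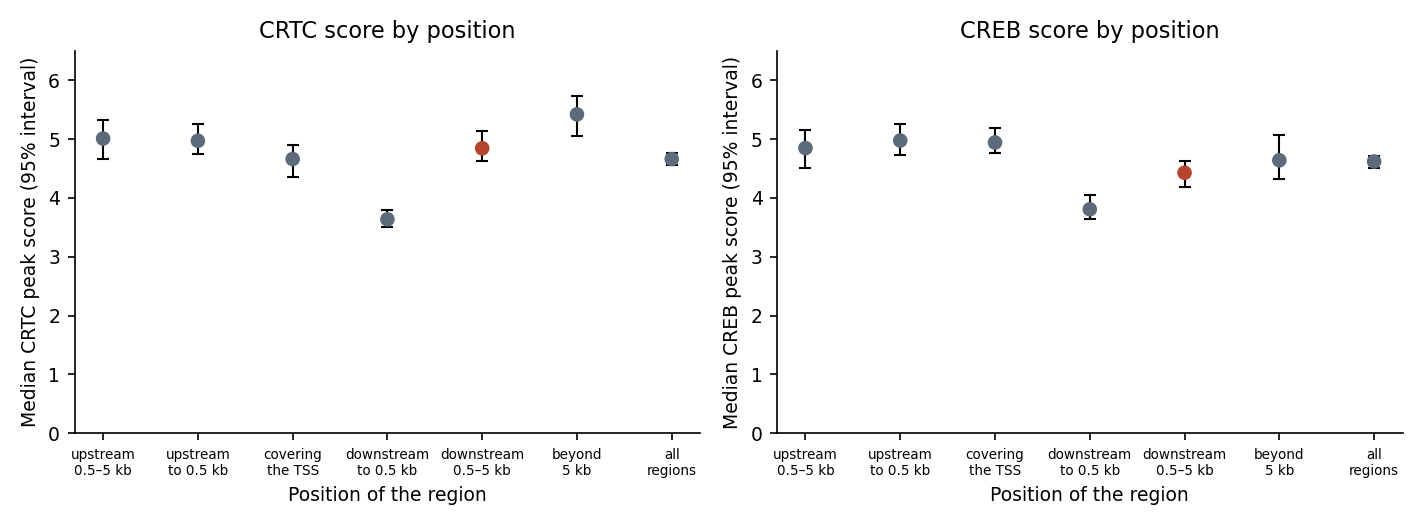
Median CRTC score (left) and median CREB score (right) of the regions in each position class, with 95% intervals over regions as bars. The downstream class at 0.5 to 5 kb, in red, sits at 4.84 and 4.43, above the class up to 0.5 kb downstream at 3.64 and 3.81. Its CREB median lies below those of the class up to 0.5 kb upstream (4.97) and of the class covering the TSS (4.94).

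Scores showed little relation to distance within the downstream range. Spearman's rho between distance and score over the 743 regions was -0.02 for CRTC and -0.04 for CREB. The median CRTC score was 4.97 at over 500 to 1000 bp and 4.62 at over 4500 to 5000 bp. Regions were 13 to 195 bp wide, with a median width of 105 bp (101 to 111) against 107 bp over all regions. Wider regions had higher scores, with a Spearman's rho of 0.53 between width and CRTC score. A CRTC score above 10 was reached by 103 downstream regions (13.9%) and by 13.9% of all regions. Above 20 there were 19 downstream regions (2.56%) of 87 in all (1.74% of all regions), and 21 of the 100 regions with the highest CRTC scores were downstream.

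CREB and CRTC scores went together in these regions. Spearman's rho was 0.794 over the 743 regions, against 0.816 over all 4995. The peaks of both lists were scored against the same input library, so the scores share its depth and base composition. At least 1 base was shared with a CREB site at 687 regions (92.5%, Wilson interval 90.3 to 94.2%), against 90.7% (89.9 to 91.5%) of all regions, with a median of 72 shared bases. The 56 regions without a shared base lay a median of 34.5 bp and at most 198 bp from the CREB site. They were narrow, with a median width of 64 bp, and had a median CRTC score of 3.56. The nearest CREB site was also the nearest of another region in 47 cases (6.33%), and 57 regions (7.67%) had more than 1 CREB site within 200 bp.

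The highest CRTC score, 35.5, was at *tlk*, which encodes the Tousled-like kinase of chromatin assembly, in a region 1683 bp downstream (X, 3642879 to 3643037) with a CREB score of 27.8. *Ssdp*, a cofactor of LIM-homeodomain transcription complexes, had a CRTC score of 32.0 and a CREB score of 34.8 at 679 bp. *bun*, a TSC-22 family gene, had 31.6 for CRTC and 28.9 for CREB at 3222 bp. These regions exceeded more than 99% of all regions for both proteins. *Trl*, which encodes the GAGA factor that opens promoter chromatin, had 29.5 for CRTC and 29.7 for CREB at 849 bp. At *ETH*, the gene of ecdysis-triggering hormone, the CREB score of 41.2 was the highest of all downstream regions, with 29.4 for CRTC at 1918 bp. *Unc-76*, a kinesin adaptor of axonal transport, had 29.0 for CRTC and 31.0 for CREB at 3124 bp. The histone demethylase gene *Kdm2* had 28.9 for CRTC and 33.4 for CREB at 3866 bp. The list of 10 was completed by *MEP-1*, a zinc-finger partner of the Mi-2 remodeller (24.4 for CRTC, 7.38 for CREB), *gce*, a juvenile hormone receptor (24.1 and 25.2), and the microRNA gene *mir-4943* (23.4 and 24.2). The 10 highest CREB scores included 8 of these genes, without *MEP-1* and *mir-4943*. The others were *Acsl*, a long-chain acyl-CoA synthetase (28.8 for CREB, 16.5 for CRTC), and *scb*, the integrin subunit also known as Volado that is needed for olfactory memory (28.7 for CREB, 19.9 for CRTC, 3686 bp).

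**Figure D3:**
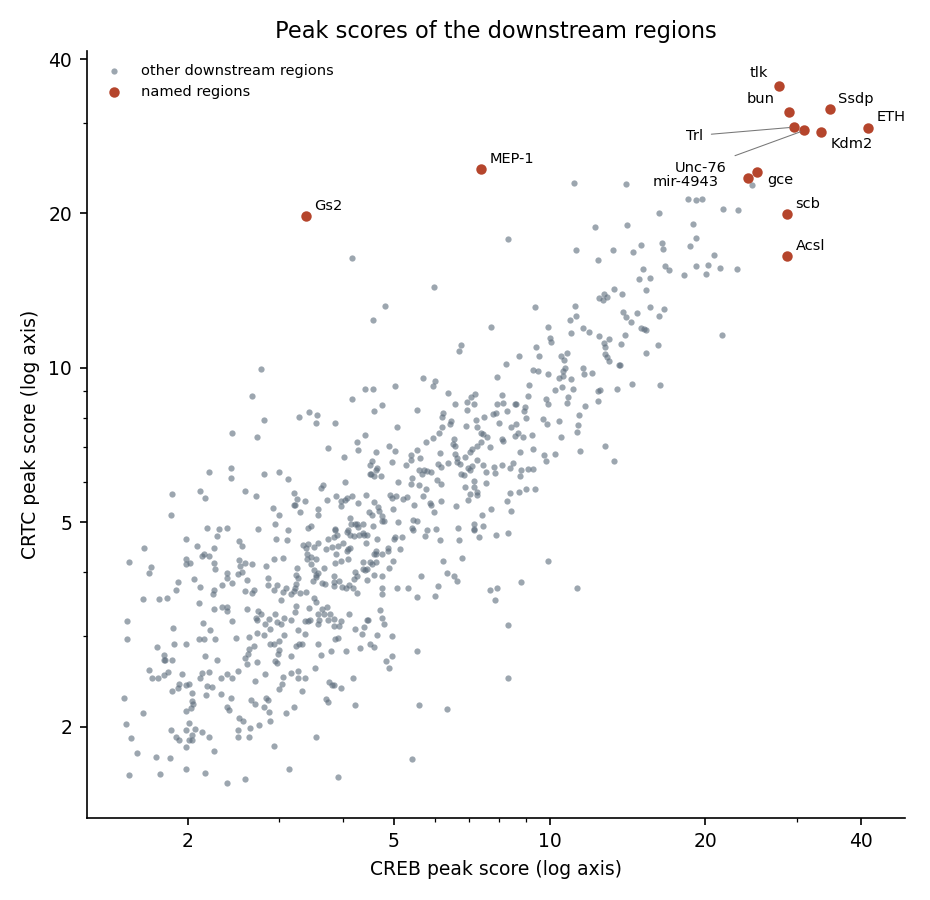
CRTC score (vertical, log axis) against CREB score (horizontal, log axis) for each of the 743 downstream regions, 1 point per region, with the highest-ranked regions and the *Gs2* region in red. The points follow a rising band, and *MEP-1* at 24.4 for CRTC and 7.38 for CREB and *Gs2* at 19.7 and 3.39 lie far above it.

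Some regions ranked high for 1 protein and low for the other. The share of all regions with a lower score differed between CRTC and CREB by at most 10 percentage points at 55.2% of the downstream regions, and at 54.2% of all regions. It differed by over 30 points at 11.4% of the downstream regions (9.27% of all regions), with CRTC the higher-ranked protein at 63 and CREB at 22. The same split over all regions was not computed, so how unusual this one is remains unknown. Ranks were taken over all regions. Against these, the downstream median was higher for CRTC (4.84 against 4.66) and lower for CREB (4.43 against 4.62), with overlapping intervals. The gap between the CRTC and CREB shares was widest at *Gs2*, which encodes glutamine synthetase 2, in the region 4576 bp downstream. Its CRTC score of 19.7 was above 98.2% of all regions, and the nearest CREB site, 15 bp away, had a score of 3.39 (above 31.1%). In the other direction, singled out after their values were seen, the *CHES-1-like* region at 4009 bp had a CREB score of 8.33 beside a CRTC score of 2.48. *Pp2B-14D*, a catalytic subunit of calcineurin, had 11.3 for CREB and 3.73 for CRTC at 519 bp.

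Most genes had a single downstream region, 444 of 567, and 123 genes with at least 2 held 299 of the regions. Of these, 93 genes had 2, 16 had 3, 8 had 4, 3 had 5 and 3 had 6 regions. *tlk*, *Kdm2* and *CHES-1-like* had 6 each, and *Mnt*, *CG15863* and *Gs2* had 5 each. The regions did not always share a start. The 507 regions with a recovered start used 368 starts, and 104 of these starts had at least 2 downstream regions, 243 in all. The 6 regions of *Kdm2* all referred to the start at 4879013 on the plus strand of 3R, from 980 to 4640 bp downstream. Their CRTC scores were 13.2, 5.82, 7.04, 28.9, 14.3 and 6.58 in order of distance. The region of *Kdm2* with the highest score was thus neither the nearest nor the farthest, and its start also had a region just upstream with a score of 9.17. The regions at 1329 and 4640 bp shared no base with a CREB site and took the CREB score of the site beside their neighbour. The 5 *Gs2* regions lay 650 to 4576 bp from the start at 11316888 of X, with CRTC scores of 9.43, 3.88, 3.69, 4.46 and 19.7 and no other region. For *CG15863*, listed as *Pdrg1* in Release 6, the 5 CRTC scores were 5.86, 7.91, 5.26, 3.43 and 20.3 from 807 to 4382 bp. In both genes the farthest of these 5 regions scored highest. *CG15863* had a further region outside the upper limit, 10013 bp downstream, with a lower CRTC score of 14.6.

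*Mnt* encodes the Max partner that opposes Myc. Its downstream regions belonged to at least 2 starts, with 4 at 3586986 of X and CRTC scores of 3.98, 2.16, 19.1 and 9.05 at 1246, 1370, 1840 and 2604 bp. The fifth, with 4.91, lay 2042 bp from another start. *CHES-1-like*, a forkhead factor, had 4 regions at the start at 7588950 of X, with CRTC scores of 3.35, 13.7, 2.74 and 2.48 at 1718, 2203, 3039 and 4009 bp. Its other 2 regions lay 1333 bp (6.92) and 2158 bp (8.61) from a different start. The 6 regions of *tlk* ranged from 2.96 to 35.5. The start with the highest *tlk* score had a single downstream region, and no region of *tlk* lay within 500 bp of that start. *Trl* had 4 regions, of which 3 had CRTC scores of 15.6, 20.4 and 21.4 at 525, 1349 and 2660 bp from 1 start, beside the score of 10.9 at the region covering it. The fourth and highest, 29.5, lay 849 bp from another start.

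**Figure D4:**
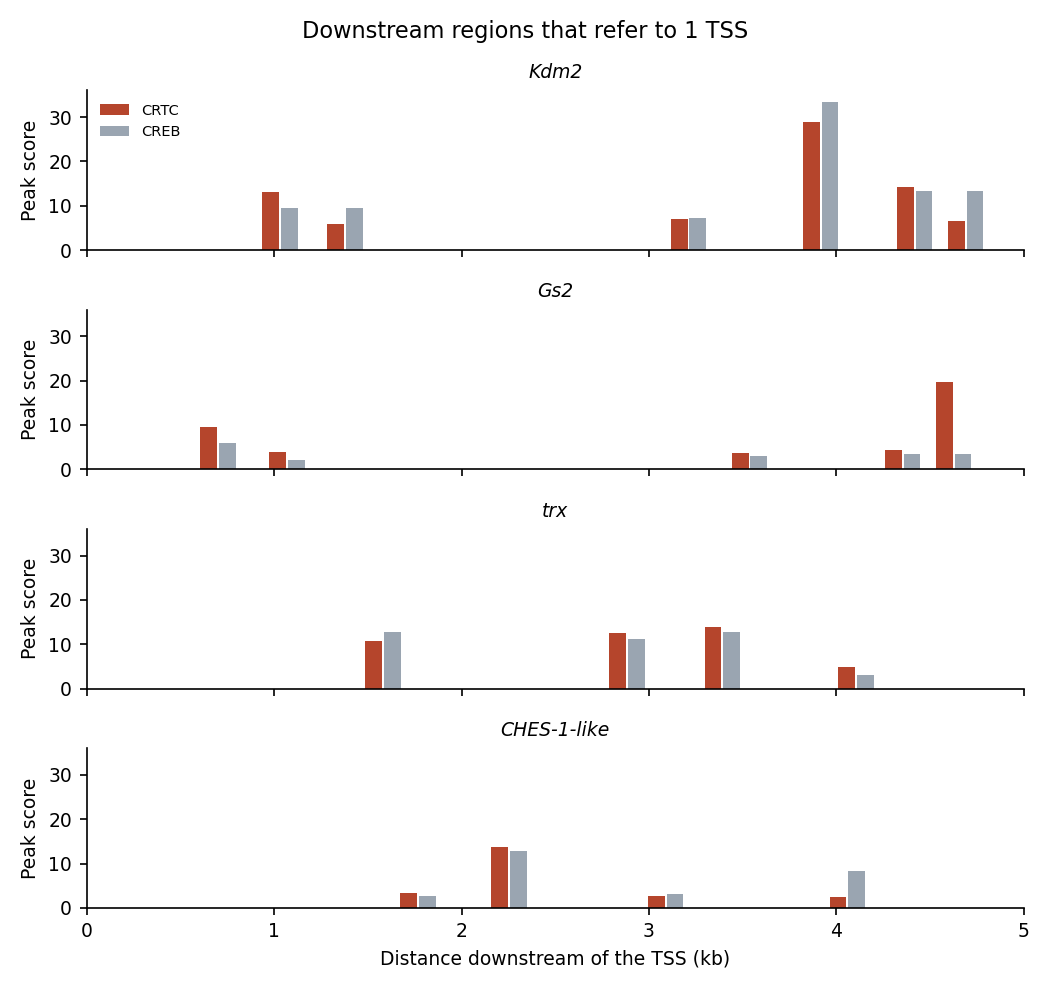
CRTC (red) and CREB (grey) scores of the downstream regions of *Kdm2*, *Gs2*, *trx* and *CHES-1-like* (vertical axis) by distance from the TSS they share, in kb (horizontal axis). The CREB bar of each region is drawn to the right of its CRTC bar, which marks the distance. The highest bars are those of *Kdm2* at 3866 bp, 28.9 for CRTC and 33.4 for CREB, and the CRTC bar of *Gs2* at 4576 bp stands far above its CREB bar.

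Of the 567 genes with a downstream region, 395 (69.7%) also had a region covering or within 500 bp of a TSS, as did 2392 of all 2833 genes (84.4%). No test was run, since a gene enters the table through at least 1 region of any class. Of the 743 regions, 533 (71.7%, interval 68.4 to 74.9%) belonged to these 395 genes. Among the 507 regions with a recovered start, that same start had such a region in 370 cases (73.0%, 69.0 to 76.7%). In 57 cases another start of the gene had it. A start could be recovered only in genes with at least 2 regions, which leaves out every gene with a single region. The 73.0% is therefore not comparable with the 71.7%. The other 210 of the 743 regions belonged to 172 genes (30.3% of the genes), and 143 genes in all had downstream regions only. The median CRTC score was 4.89 (4.64 to 5.27) with and 4.69 (4.39 to 5.32) without a region near a TSS. The CREB medians were 4.56 (4.26 to 4.78) and 4.09 (3.73 to 4.54). Regions of genes without a promoter region lay farther out, at a median of 1533 bp against 1165 bp.

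Within the 395 genes with both kinds of region, the highest downstream CRTC score was slightly below the highest score near a TSS. The median log2 difference, downstream minus near, was -0.23 (interval -0.38 to -0.05), and the downstream score was higher in 170 genes (43.0%, 38.2 to 48.0%). For CREB the median was -0.44 (-0.51 to -0.27), with 144 genes higher downstream (36.5%). The CRTC difference was at least 4-fold towards the downstream region in 14 genes and towards the TSS in 24. Among the 14 were *Unc-76* (29.0 downstream, 4.32 near the TSS), *Ssdp* (32.0 and 6.92), *MEP-1* (24.4 and 5.48) and *Dl*, the Notch ligand Delta (15.2 and 3.46). Singled out after their values were seen, *fz2*, a Wnt receptor, had 3.67 downstream and 27.5 near the TSS, and *tou* had 7.43 and 62.5. Where a gene had 1 region of each kind (185 genes), the median log2 difference was -0.11, and 88 genes were higher downstream. In the setting that took the region nearest to the TSS of each kind, the median over genes was -0.06.

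The 10 highest-scoring genes without a region near a TSS were *ETH*, *mir-4943*, *vib*, *CG15863*, *scb*, *Gs2*, *CG31668*, *CG34336*, *CG33777* and *fl(2)d*. *vib*, a phosphatidylinositol transfer protein gene, had a CRTC score of 22.9 and a CREB score of 14.1 at 728 bp. *fl(2)d*, which encodes a subunit of the m6A methyltransferase complex that acts in *Sxl* splicing, had 16.3 and 12.4 at 1664 bp. The CRTC scores of *CG31668*, *CG34336* and *CG33777* were 19.0, 17.8 and 16.4. For *ETH*, *vib*, *scb*, *CG31668*, *CG34336*, *CG33777* and *fl(2)d* the downstream region was the single region of the gene.

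The genes that the study selected for follow-up had 9 downstream regions of 34 regions (26.5%, Wilson interval 14.6 to 43.1%), in 5 of 10 genes. The interval contained the share of 14.9% over all regions. They were picked by the study for CREB/CRTC binding and histone acetylation, so their count is not independent evidence. *trx*, the H3K4 methyltransferase Trithorax, had 4 regions at the start at 10112624 of 3R. Their CRTC scores were 10.7, 12.6, 13.9 and 4.83 at 1532, 2832, 3342 and 4055 bp, and the CREB scores were 12.8, 11.2, 12.7 and 3.12. The region covering this start had a CRTC score of 2.86, below each of the 4, and the region 335 bp downstream had 14.1. The *Smr* region, 4637 bp downstream (X, 12631347 to 12631465), had 13.2 for CRTC and 4.81 for CREB. It was the nearest of 4 *Smr* regions to the TSS, and the others had CRTC scores of 14.3, 8.96 and 10.5 at 5700, 6096 and 6702 bp. *beta-Spec*, the gene of the membrane skeleton protein β-spectrin, had a single region, with 13.7 for CRTC and 12.5 for CREB at 1569 bp. *aop*, the ETS repressor Yan, had 2.90 for CRTC at 2382 bp and 7.17 at 3144 bp, against 23.9 at the region covering its TSS. *Mob2*, a coactivator of NDR kinases, had 4.44 at 1280 bp, below its regions at the TSS (16.5 and 10.9). *elav*, a neuronal RNA-binding protein gene outside this selection, had 5.98 for CRTC and 7.53 for CREB at 640 bp, and 20.02 for CRTC at the region covering its TSS.

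Downstream regions were compared by gene list with the share of 14.9% over all regions and 20.01% over all genes. The share of genes also depends on how many regions each gene has, which differed between lists. Among histone modifiers and chromatin regulators, 31 of 110 regions were downstream (28.2%, Wilson interval 20.6 to 37.2%), in 16 of 34 genes (47.1%). Their median CRTC score was 7.501, and 27 of the 31 were above the median of all regions. Besides *Trl*, *Kdm2*, *MEP-1* and *trx* they included *osa*, a subunit of the Brahma remodelling complex (13.05 for CRTC), *Sin3A*, the scaffold of a histone deacetylase complex (10.6 and 7.04), and *nej*, the gene of the CREB coactivator CBP (7.48 and 7.003 at 638 and 1239 bp). 14 of the 31 regions belonged to *Trl*, *Kdm2* and *trx*. The list also shares *trx* and *Smr* with the genes that the study selected. Among synaptic vesicle and transmitter genes the share was 12 of 39 (30.8%, 18.6 to 46.4%), in 9 of 22 genes, with lower scores (median CRTC score 4.06). They included *Syt1*, the calcium sensor of transmitter release (11.0), the active zone scaffold gene *brp* (4.19 and 1.88) and neurexin *Nrx-1* (2.93 and 2.37). These intervals lay above 14.9%, but the lists are short, their regions cluster in genes, and no test was run.

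Among genes of cAMP, calcium and learning signalling, 20 of 86 regions were downstream (23.3%, 15.6 to 33.2%), an interval that also lay just above 14.9%. The 20 include both *nej* regions already counted among chromatin regulators, and the share without them was not computed. The highest CRTC score was at *norpA*, a phospholipase C (15.8 at 2164 bp). *Pde11*, a cyclic nucleotide phosphodiesterase, had 9.11, *rg*, a neurobeachin that anchors protein kinase A, had 8.44, and *Cam*, calmodulin, had 6.17. *CrebB-17A*, the CREB gene itself, had 2 regions with low to middling CRTC scores, 2.83 at 545 bp and 4.19 at 1911 bp. Among circadian clock genes the share was 11 of 52 (21.2%, 12.2 to 34.03%), with *Eip75B*, a nuclear receptor, the highest (10.01), *Clk* at 6.32, *vri* at 5.06 and 4.09, and *cry* at 4.97. Among transcription factors 68 of 385 regions were downstream (17.7%, 14.2 to 21.8%), with *Mnt* the highest (19.1), and 37 of the 68 were above the median CRTC score of all regions. The insulin and TOR pathway had 6 of 33 (18.2%, 8.61 to 34.4%), led by the insulin receptor gene *InR* (11.1 at 509 bp). RNA-binding and mRNA regulation genes had 16 of 97 (16.5%, 10.4 to 25.1%), led by *shep* (11.1), with *Imp* at 9.87 and *Syp* at 9.08, a pair whose opposing levels give MB neurons their temporal identity. The intervals of these 4 lists, from clock genes to RNA-binding genes, all contained 14.9%. The downstream regions of *Eip75B*, *Pdp1*, *Clk* and *vri* count among both clock genes and transcription factors. Those of *CrebB-17A* count among both learning genes and transcription factors.

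Shares were below 14.9% for cell adhesion and axon guidance genes (9 of 74, 12.2%, interval 6.53 to 21.5%, led by *scb*), proteasome and chaperone genes (2 of 17, led by *Hsc70Cb* at 9.11), Notch pathway genes (4 of 37, 10.8%, led by *Dl*) and ion channels (3 of 35, 8.57%, 2.96 to 22.4%, led by the IP3 receptor gene *Itp-r83A* at 7.04). The potassium channel genes *Sh* (4.71) and *Shal* (3.31) held the other 2 of these channel regions. All of these intervals contained 14.9%. Cytosolic ribosomal protein genes had 0 downstream of 39 regions, which allows a share of up to 7.69% (3 counts of the total; the Wilson bound in the plot of shares is 8.97%), and 37 of the 39 lay within 500 bp of the TSS.

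**Figure D5:**
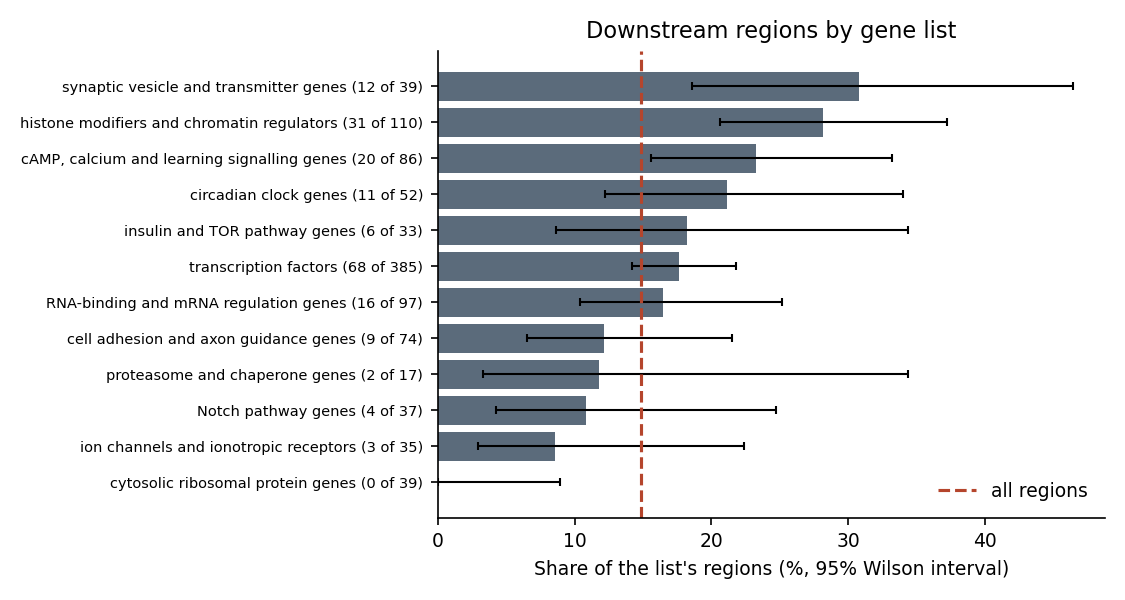
Share of the regions of each gene list that lie 0.5 to 5 kb downstream of a TSS (horizontal axis, %), with 95% Wilson intervals as lines and the number of regions beside each name. The dashed line is the share over all regions, 14.9%. The intervals of synaptic (30.8%), chromatin (28.2%) and learning genes (23.3%) lie to its right, and that of ribosomal protein genes (0%) to its left.

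Another CRTC site was within 1 kb of 434 of them (58.4%, interval 54.8 to 61.9%), against 52.1% (50.7 to 53.5%) of all regions, 62.8% (59.0 to 66.4%) of those 0.5 to 5 kb upstream and 58.0% (54.7 to 61.3%) of those up to 500 bp downstream. The median gap to the nearest CRTC site was 764 bp (695 to 809), against 874 bp (820 to 973) over all regions. When only sites that are CREB/CRTC regions themselves were counted, the share was 51.95% (48.4 to 55.5%), against 46.2% (44.8 to 47.6%) of all regions, 56.6% (52.7 to 60.4%) upstream and 51.2% (47.9 to 54.6%) up to 500 bp downstream.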

How the data were processed

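ChIP-seq for CREB and CRTC was performed on MB nuclei isolated through FLAG-KASH, either of naive flies or of flies that had undergone spaced training 1 day earlier, with antibodies raised against each fly protein. Per the study's methods, paired-end MiSeq reads were mapped to dm3 with CLC Genomics Workbench, discarding pairs separated by over 500 bp and mapping qualities under 8, and Strand NGS (PICS and ERD) found the peaks relative to input DNA. Peaks found in at least 2 of 3 replicates were kept, as 1 list of 7243 CREB sites and 1 of 5990 CRTC sites. The score of each site and its false discovery rate, which was at most 0.0101, were made by the authors. The table of CREB/CRTC regions deposited by the authors, the CRTC sites at most 200 bp from a CREB site, gives a gene and a signed distance in bp, negative upstream. Its other 4 columns hold fold changes and adjusted p-values of the authors' own DESeq2 comparison of trained with naive flies in windows, which was not used here. It has 5510 rows, of which 515 hold no site.

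From these files, region classes, medians, shares and correlations were computed in Python (version 3.11.15) using pandas 2.3.3, NumPy 2.4.6 and SciPy 1.17.1; Matplotlib 3.10.9 drew the figures. Each region took the scores of its own CRTC site (4995 of 4995 matched) and of the nearest CREB site. Shares have 95% Wilson intervals and medians 95% binomial intervals over regions. A count of 0 was taken to allow 3. The strand of a gene was set where distances of 2 of its regions agreed on a TSS within 1 bp. Each region of that gene not covering a TSS then gave a TSS from its own distance, even if no other region pointed to it. No p-value was computed, since the lists hold no values per library. The scripts were tested on simulated data.

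Genes were named by rule: the 10 highest CRTC and 10 highest CREB scores, genes with at least 5 downstream regions, the study's selected genes and *elav*, the highest CRTC score per gene list, the 10 highest genes with no region within 500 bp of a TSS, and the 3 regions on each side of each limit. Members of the gene lists are named as examples. The members, lists and rules were chosen with earlier results of these data known. Of the 567 gene names, 461 match a symbol and 95 match a single synonym of the RefSeq gene table (Release 6), from which nothing but names was taken. Sequence motifs were not analysed here.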

Additional observations from a re-analysis of the deposited data

Results flagged for a closer look

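Beside the downstream regions, the CRTC list holds sites that the comparison above leaves out because no CREB site lies within 200 bp. Of 995 such sites, 83 were within 1 kb of a downstream region, called above the input library. Their median CRTC score was 2.66, against 2.80 over all 995 such sites and 4.84 at the downstream regions. The highest was 10.02, at a site 502 bp from the region of *ade5* (X, 12649173 to 12649241). The next were near *Dlic* (7.60), *Gyc76C* (7.40), *gpp* (7.19) and *HmgD* (6.73). At least 1 such site lay within 1 kb of 11.7% of the downstream regions and of 10.6% of all regions. Of the 2182 CREB sites with no CRTC site within 200 bp, 97 were within 1 kb of a downstream region, with a highest CREB score of 13.6. Such a CREB site lay within 1 kb of 11.6% of the downstream regions and of 8.89% of all regions.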

How the results depend on the processing

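Of 52 alternative values, 26 stayed within the 95% interval of the value reported (counts of regions: within 1.5 times) and 26 did not. Only the within-gene differences and the correlations could change sign, and 0 of them did. For each gene list, the 52 include a share of genes set against a share of regions. These are unlike measures, so the split of the 52 does not rate the results as a whole. The cause of a move was not tested where the alternative's own construction (fewer, wider or higher-scoring sites, or another unit of counting) does not show it. The number of downstream regions was 430 with a lower limit of 1000 bp, 406 with sites at least 100 bp wide, 219 at a false discovery rate of at most 0.001, and 160 when each gene was counted once by its region nearest to a TSS. The median CRTC score was 6.37 in sites at least 100 bp wide, 9.73 at the stricter false discovery rate and 5.18 with the best region of each gene, and the median CREB score was 5.95 and 10.04 in the first 2 of these. The median width at the stricter rate was 131 bp. The share overlapping a CREB site was 74.4% when 50% of the site had to be covered, 97.0% with edges at most 50 bp apart and 97.0% in sites at least 100 bp wide. The share whose gene has a region near a TSS was 67.2% within 200 bp and 61.6% within 100 bp. Spearman's rho of the CRTC and CREB scores was 0.820 in overlapping regions and 0.827 in wide sites. The share within 1 kb of another CRTC site was 51.95% when only CREB/CRTC regions were counted, an alternative added after the data were seen. The within-gene CRTC difference stayed below 0, from -0.36 to -0.06 on the log2 scale, but with the region nearest to the TSS in each class it was close to 0.

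Counted by gene, also added after the data were seen, the share of genes with a downstream region was 20.01% over all genes, 47.1% for chromatin, 36.8% for learning signalling, 35.96% for transcription factor, 35% for RNA-binding, 45.5% for clock, 35.7% for insulin and TOR, 30.8% for Notch, 40.9% for synaptic and 50% for study-selected genes. It was below 20.01% for cell adhesion (17.02%), proteasome and chaperone (16.67%), ion channel (13.04%) and ribosomal protein genes (0%). A gene with more regions has more chances to be counted, so these shares are not comparable with shares of regions. For the same reason they are not directly comparable with 20.01%, since the lists differ in regions per gene. Transcription factors had 385 regions in 114 genes and chromatin genes 110 in 34, against 4995 in 2833 over all. No paired analysis was possible because the lists carry no value per library, and no replicate could be left out for the same reason. Depth limits what the lists hold, since only sites past the authors' threshold are listed.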
